A study of Arabidopsis thaliana with 6 samples.

Results

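Wild-type buds of Arabidopsis thaliana (Columbia) at stage C were set against wild-type buds at stage B, a step in which the anther passes from tetrads and young microspores to dividing pollen and a degenerating tapetum. The comparison uses 2 of the 6 libraries of the series. Stage C holds buds whose anthers were at stages 10 to 11, stage B those at stages 7 to 9, and stage A those at stages 5 to 6. Each stage was sequenced once from wild type and once from atcep1, a mutant of the papain-like cysteine protease CEP1. Plants of both genotypes were grown on soil in a daily light and dark cycle, and RNA came from whole buds, so sepals, petals and carpels are in every library.

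The tapetum is the innermost layer of the anther wall. It secretes enzymes that free the microspores from their callose wall, precursors of the sporopollenin of the pollen wall (exine), and the lipids and proteins of the pollen coat, and it is then taken apart by programmed cell death. Microspores meanwhile divide into a vegetative cell and a generative cell, and the vegetative cell stores transcripts for wall enzymes, transporters and receptors of the pollen tube.

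Locus levels are RPKM, unique reads scaled to transcript length and to the library total, summed over the transcript models of a locus. A locus was called higher when log2 of (stage C RPKM + 1)/(stage B RPKM + 1) reached 1, and lower when it reached -1, provided that the larger level came to 5 RPKM. Log2 ratios below are on this scale, which understates the change of low genes. Other ratios are of reads per library total, with an exact conditional 95% interval. There was 1 library per stage, so no difference has a replicate check, no test was possible, and "rose" and "fell" mean only that a locus was called. The intervals cover counting error only, and PCR copies of a fragment would make them too narrow. The libraries held 4.2e+06 reads at stage C and 4.1e+06 at stage B, and 23875 loci had a read in at least 1 of them. Of these, 598 were called higher at stage C (2.5%) and 396 lower (1.66%), against a median log2 ratio of -0.01 over all of them. Among the 13271 loci that reached 5 RPKM the shares were 4.51% and 2.98%. The floral markers AP1, AP3 and PI stood at 170.2, 209.8 and 160.2 RPKM at stage C and 184, 276 and 207 RPKM at stage B, and none was called. Of the seed storage markers 1 of 4 had a read (PAP85, 0.284 RPKM at stage C and 1.03 at stage B), and the root markers PYK10 and COBL9 were at or below 1.08 RPKM, while SHR, with 41.96 RPKM at stage C and 34.3 at stage B, and SCR, with 33.2 RPKM at stage C and 39.1 at stage B, which also act in shoots, were present.

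The loci called higher took 5.65% of all reads at stage C and 1.98% at stage B. The loci called lower took 0.638% at stage C and 1.94% at stage B. The falls reached further than the rises: 118 of 396 lower loci and 67 of 598 higher loci had moved at least 4-fold, and 31 and 4 at least 8-fold. The counting interval lay clear of 1 for 360 of the 396 lower loci and for 563 of the 598 higher loci. The levels plot shows the list of tapetum secreted proteins along the lower edge and the list of late pollen genes among the rises.

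**Figure D1:**
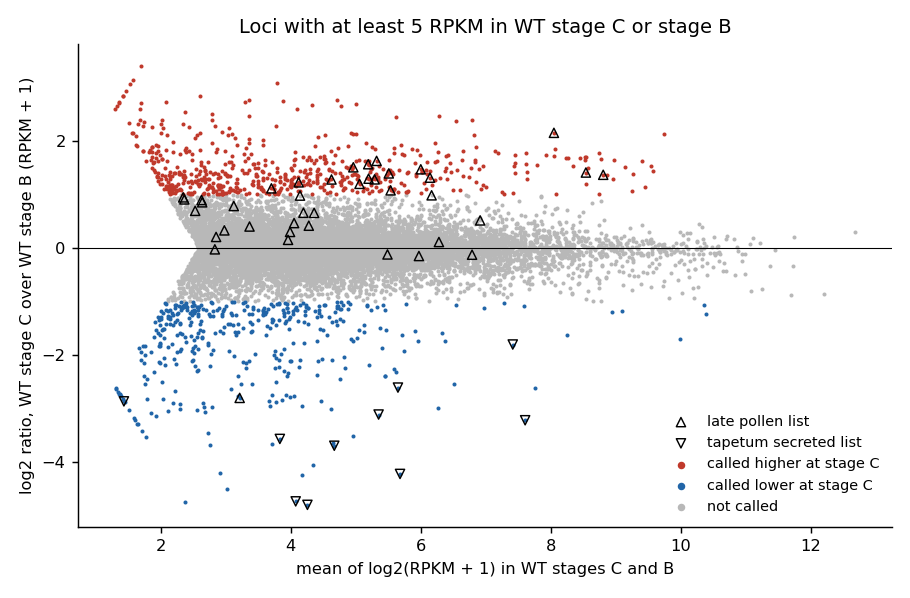
Log2 ratio of wild-type stage C over stage B (RPKM + 1) against the mean log2 level of the 2 libraries, for the 13271 loci with at least 5 RPKM in either. Points are loci, red when called higher (598), blue when called lower (396) and grey otherwise. Triangles ring members of the late pollen and tapetum secreted lists, of which the second all lie below 0.

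Transcripts on the list of proteins that the tapetum secretes fell together. Its members were chosen with earlier results of these data known, so their count is a description only. All 10 members of the list were called lower, with a median log2 ratio of -3.40, and their summed level was 210.2 RPKM at stage C and 1709.7 RPKM at stage B, after 2919 RPKM at stage A. The lowest log2 ratio on the RPKM + 1 scale of any gene with at least 10 RPKM, -4.81, was that of TAP35/TAP44 (AT5G44540; chromosome 5, 17941287 to 17941646, TAIR10), a tapetum-specific protein. It had 2.62 RPKM (4 reads) at stage C and 100.3 RPKM (148 reads) at stage B (ratio 0.0261, 95% interval 0.00702 to 0.0682). Lipid-transfer-type proteins made up most of the list. AT5G52160 had 2.26 RPKM (6 reads) at stage C and 86.4 RPKM (221 reads) at stage B (ratio 0.0262, 95% interval 0.00951 to 0.05795). AT3G52130 had 10.9 RPKM at stage C and 221 at stage B (log2 ratio -4.23). A9 (AT5G07230), whose promoter is widely used to drive genes in the tapetum, had 3.13 RPKM at stage C and 48.2 at stage B. LTP12 was the most abundant member at stage B and had 62.7 RPKM (145 reads) at stage C and 595 RPKM (1327 reads) at stage B (ratio 0.105, 95% interval 0.0882 to 0.125). The smallest fall on the list was that of AT1G66850, a further lipid-transfer-type protein, with 90.3 RPKM at stage C and 319 at stage B (log2 ratio -1.81). ATA7, of the lipid-transfer type, and ATA27, a glycosyl hydrolase, had 12.9 and 19.3 RPKM at stage C and 119 and 123 RPKM at stage B. In whole buds, fewer tapetal cells and less of these transcripts per cell cannot be told apart.

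The course over the 3 wild-type stages differed among the tapetal genes. TAP35/TAP44, AT5G52160, AT3G52130, AT5G62080 and A9 were highest at stage A and lower at each later stage, as with AT3G52130 at 772, 221 and 10.9 RPKM at stages A, B and C. LTP12 was nearly as high at stage B as at stage A, with 662, 595 and 62.7 RPKM at stages A, B and C. AT1G66850 and ATA27 were highest at stage B, with 169, 319 and 90.3 RPKM at stages A, B and C for the first of them and 96.01, 123 and 19.3 RPKM at stages A, B and C for ATA27. All 16 late pollen genes called higher were lowest at stage A, as the courses plot shows. That they were higher at stage C than at stage B is fixed by the call.

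**Figure D2:**
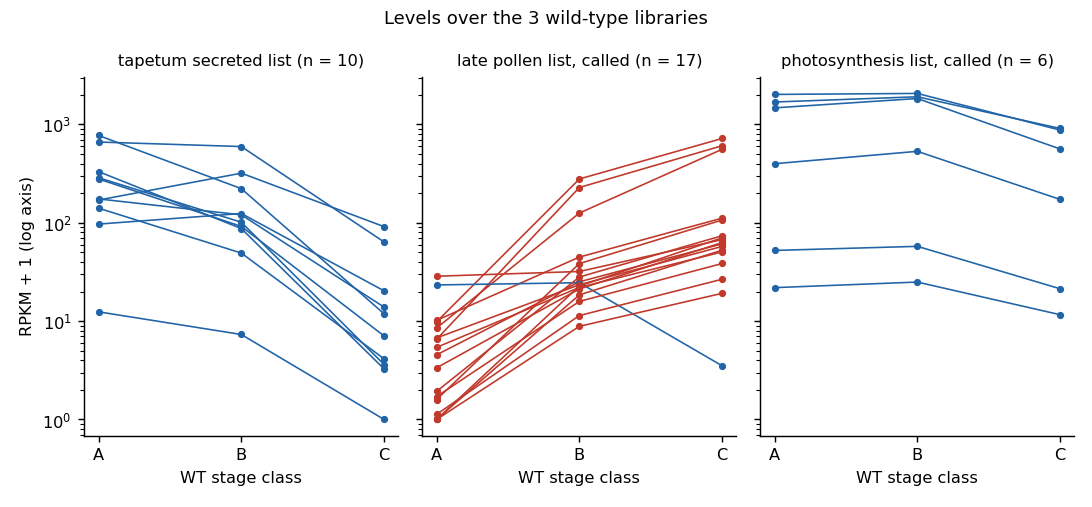
RPKM + 1 on a log axis at wild-type stages A, B and C for the 10 tapetum secreted loci, the 17 called loci of the late pollen list and the 6 called loci of the photosynthesis list. Each line is a locus, red if called higher at stage C than at stage B and blue if called lower. The single blue line among the late pollen loci is STP2. The photosynthesis loci, all called lower at stage C than at stage B, also stand higher at stage B than at stage A.

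On the list of exine and sporopollenin genes 7 of 11 members were called lower and 0 higher, with a median log2 ratio of -2.09. PKSB (AT4G34850), a polyketide synthase that extends fatty acyl chains for sporopollenin, had 0.889 RPKM (5 reads) at stage C and 23.2 RPKM (126 reads) at stage B (ratio 0.0383, 95% interval 0.0122 to 0.0918). ACOS5, the acyl-CoA synthetase that feeds it, had 0.286 RPKM (2 reads) at stage C and 10.4 RPKM (70 reads) at stage B (ratio 0.0276, 95% interval 0.00328 to 0.103). Both fatty acid hydroxylases of the pathway were called, CYP704B1 at 1.22 RPKM at stage C and 17.5 at stage B and CYP703A2 at 0.294 RPKM at stage C and 8.22 at stage B. MS2, a fatty acyl reductase, had 1.45 RPKM at stage C and 18.4 at stage B (log2 ratio -2.98), and ABCG26, the transporter that exports the precursors, had 0.572 RPKM at stage C and 5.69 at stage B (log2 ratio -2.09). TKPR1 (AT4G35420), a reductase of the polyketide products, was called with a smaller ratio, at 26.5 RPKM at stage C and 57.8 at stage B (log2 ratio -1.10). The other polyketide synthase, PKSA (AT1G02050), did not reach the threshold and had 23.3 RPKM at stage C and 33.3 at stage B (log2 ratio -0.49). ABCG1 and ABCG16, transporters also needed for the pollen wall, had log2 ratios of 0.11 and -0.20.

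Phenolamides, which are hydroxycinnamoyl spermidines laid on the pollen surface, are made in the tapetum as well. Of the 5 genes of their list with a read, 4 were called lower, and the median log2 ratio was -2.003. TSM1, a tapetum-specific methyltransferase, had 8.22 RPKM (30 reads) at stage C and 105 RPKM (370 reads) at stage B (ratio 0.0783, 95% interval 0.0521 to 0.114). SHT, the spermidine hydroxycinnamoyl transferase, had 1.69 RPKM at stage C and 11.5 at stage B (log2 ratio -2.21), and the hydroxylases CYP98A8 and CYP98A9 had log2 ratios of -2.003 and -1.45. OMT1, a methyltransferase used in many tissues, was not called at 72.2 RPKM at stage C and 128 at stage B. On the flavonoid list 1 of 8 genes was called, UGT79B6 (AT5G54010), a flavonol glycosyltransferase of the tapetum, at 1.67 RPKM at stage C and 5.02 at stage B. CHS, the entry enzyme of the pathway, had 340.1 RPKM at stage C and 538 at stage B (log2 ratio -0.66).

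On the list of callose and tetrad wall genes 3 of 10 with a read were called lower and 0 higher. A6 (AT4G14080), a glucanase-type protein tied to the dissolution of callose around the tetrads, had 0.708 RPKM (5 reads) at stage C and 37.99 RPKM (259 reads) at stage B (ratio 0.0186, 95% interval 0.006000 to 0.04405), which was among the steepest falls of all genes. ATA20 and QRT1, a pectin methylesterase needed to part the tetrad, had 1.21 and 1.27 RPKM at stage C and 8.95 and 5.99 RPKM at stage B. CALS5, the callose synthase of the microspore wall, was not called and had 3.66 RPKM at stage C and 2.02 at stage B. On the pollen coat list 2 of 22 were called lower. EXL4 (AT1G75910), an extracellular lipase of the coat, had 36.7 RPKM (202 reads) at stage C and 219 RPKM (1166 reads) at stage B (ratio 0.167, 95% interval 0.143 to 0.194), against a level of 82.2 RPKM at stage A. GRP18 (AT5G07520), an oleosin-type coat protein, had 13.1 RPKM at stage C and 32.04 at stage B. Its relatives GRP17, GRP19 and GRP20 had log2 ratios of -0.59, -0.997 and -0.78 and were not called. EXL5 and EXL6 (AT1G75920 and AT1G75930) had log2 ratios of 0.15 and -0.81.

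Of the regulators that specify and mature the tapetum 3 of 23 were called lower and 0 higher. BHLH010 (AT2G31220) had 1.66 RPKM at stage C and 12.1 at stage B (12 and 84 reads; log2 ratio -2.29). AMS, which switches on the sporopollenin and coat genes, had 5.22 RPKM (42 reads) at stage C and 28.5 RPKM (221 reads) at stage B (ratio 0.183, 95% interval 0.129 to 0.256). SPL/NZZ, which starts the anther cell lineage, had 2.96 RPKM at stage C and 7.28 at stage B. Several other transcription factors of the cascade were below 5 RPKM in both libraries and so could not be called. TDF1 had 0.459 RPKM at stage C and 4.28 at stage B, MYB99 had 0 RPKM at stage C and 2.31 at stage B, MS1 had 0.107 RPKM at stage C and 1.33 at stage B and MYB80 had 0 RPKM at stage C and 1.01 at stage B. The receptors and kinases that specify the layer were not called. EMS1 had 32.99 RPKM at stage C and 29.96 at stage B, TPD1, its ligand, had 18.6 RPKM at stage C and 16.7 at stage B, and SERK1 and SERK2 had log2 ratios of -0.05 and 0.07. NAC025 (AT1G61110), a NAC factor outside the list, fell to 10.6 RPKM at stage C, against 62.6 RPKM at stage B.

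**Figure D3:**
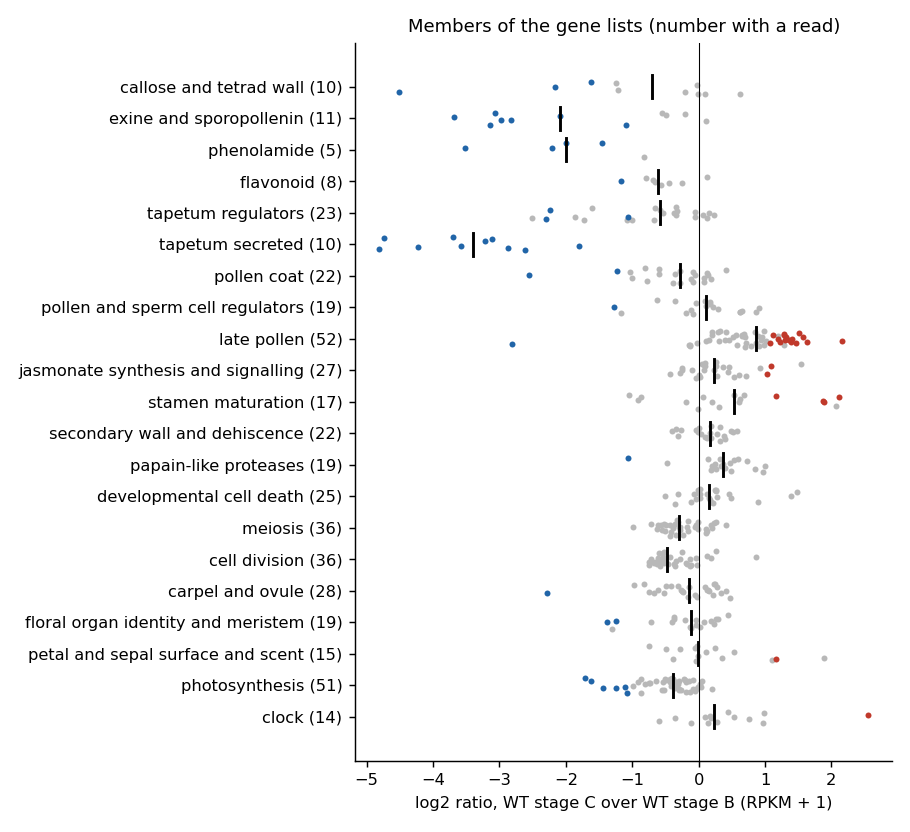
Log2 ratio of wild-type stage C over stage B (RPKM + 1) for the members of 21 gene lists, with the number of members with a read in brackets. Points are loci (red called higher, blue called lower, grey not called) and black bars are list medians, from -3.40 for the tapetum secreted list to 0.86 for the late pollen list.

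On the list of genes of the maturing pollen grain 16 of 52 loci with a read were called higher, 1 was called lower and 35 did not pass, and 47 lay above 0, with a median log2 ratio of 0.86 and a summed level of 3449 RPKM at stage C and 1559 RPKM at stage B. Wall enzymes led the list. PPME1 (AT1G69940), a pectin methylesterase of the pollen tube, had 558 RPKM (3206 reads) at stage C and 124.6 RPKM (691 reads) at stage B (ratio 4.48, 95% interval 4.12 to 4.87). VGD1 (AT2G47040), a pectin methylesterase that keeps the tube wall from bursting, had 719 RPKM at stage C and 278 at stage B, and the polygalacturonase PGA4 (AT1G02790) had 606 RPKM at stage C and 227 at stage B.

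Several receptors and ligands of the tube were called higher as well. The receptor kinase PRK2 (AT2G07040) had 69.4 RPKM (651 reads) at stage C and 21.8 RPKM (197 reads) at stage B (ratio 3.19, 95% interval 2.72 to 3.76). BUPS1 (AT4G39110) and ANX2 (AT5G28680), partner receptor kinases that guard tube integrity, had 61.96 and 18.2 RPKM at stage C and 20.3 and 7.86 RPKM at stage B. Their peptide ligands RALFL4 and RALFL19 had 106 and 72.9 RPKM at stage C and 37.5 and 27.1 RPKM at stage B. The leucine-rich repeat extensins LRX8, LRX9 and LRX11 (AT3G19020, AT1G49490 and AT4G33970), which bind such peptides in the wall, had log2 ratios of 1.20, 1.30 and 1.28. LRX10 (AT2G15880) was higher than these in level, at 143 RPKM at stage C and 99.9 at stage B, and was not called (log2 ratio 0.52). ANX1 stood at 6.07 RPKM at stage C and 6.197 at stage B.

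Transporters split. STP11, a sugar transporter of pollen tubes, had 51.7 RPKM (422 reads) at stage C and 17.5 RPKM (138 reads) at stage B (ratio 2.95, 95% interval 2.43 to 3.604), and the sucrose carrier SUC1 had 66.5 RPKM at stage C and 30.98 at stage B. The proton pumps AHA8 and AHA9 had 111 and 60.1 RPKM at stage C and 43.8 and 24.1 RPKM at stage B, while AHA6 was not called (log2 ratio 0.66). STP2 (AT1G07340), a sugar carrier of early microspores, was the single member called lower, with 2.51 RPKM (18 reads) at stage C and 23.6 RPKM (163 reads) at stage B (ratio 0.107, 95% interval 0.0616 to 0.174). The actin machinery of the tube was not called. The profilin PRF4 had 58.6 RPKM at stage C and 65.2 at stage B, PRF5 had 21.4 RPKM at stage C and 15.8 at stage B, and the depolymerizing factors ADF7 and ADF10 had log2 ratios of 0.40 and 0.30. The NADPH oxidases RBOHH and RBOHJ were below 2 RPKM in both libraries.

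Of 19 regulators of pollen and sperm cells 0 were called higher and 1 lower, SCP (AT3G47870), a LOB-domain factor needed for the microspore division, with 2.86 RPKM at stage C and 8.29 at stage B (log2 ratio -1.27). Only 10 of the 19 reached 5 RPKM in either library, and among all loci that reached it 4.51% were called higher and 2.98% lower. DUO1, the switch of the male germ line, had 0 reads at stage C and 0.546 RPKM at stage B. HTR10, a sperm-cell histone, had 5.89 RPKM at stage C and 2.67 at stage B and was not called. The MADS-domain factors AGL30, AGL65, AGL66, AGL94 and AGL104, which act in complexes in maturing pollen, were not called, with AGL30 at 18.2 RPKM at stage C and 15.6 at stage B and AGL104 at 7.44 RPKM at stage C and 8.67 at stage B.

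Families of wall-modifying proteins were called higher in shares above the background of 2.5%. Families were taken by words in the annotated product. Of the 104 loci annotated as pectin methylesterases or their inhibitors with a read, 20 were called higher and 0 lower. Their summed level was 6268 RPKM at stage C and 3058 RPKM at stage B. The pectin methylesterases PPME1 and QRT1 are not among them and were counted with the pectin lyase-like proteins. AT2G47050, annotated to this family, was among the 6 most abundant rising genes, at 1269 RPKM (5185 reads) at stage C and 436 RPKM (1720 reads) at stage B (ratio 2.91, 95% interval 2.75 to 3.07). Among the 20 members called higher in this annotated family, AT5G49180 and AT3G05610 had the largest log2 ratios. The first had 69.5 RPKM at stage C and 17.1 at stage B, and AT3G05610 had 142 RPKM at stage C and 40.5 at stage B. PPME1, counted in the other family, had a larger log2 ratio than both. Among polygalacturonases and pectin lyase-like proteins 14 of 85 were called higher, PPME1 among them, and 1 lower, QRT1. Among pectate lyases 4 of 13 were called higher and 0 lower. The pectate lyase AT3G01270 had 639 RPKM at stage C and 225 at stage B, against 1.64 RPKM at stage A. Arabinogalactan proteins, glycoproteins of the cell surface, had 11 of 54 called higher and 3 lower. AGP6 (AT5G14380) and AGP11 (AT3G01700), which pollen needs for its development, had 1188 and 667 RPKM at stage C and 382 and 205 RPKM at stage B. The 3 that fell included AT4G29980, a fasciclin-like protein by sequence, which had 0 reads at stage C and 67 at stage B (ratio 0, 95% interval 0 to 0.0546). Set against a floor of 3 reads in the library, it was 23.1-fold lower. Reads were counted where they matched uniquely, so levels of near-identical copies within these families are uncertain.

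Small cysteine-rich peptides, a group that holds defensin-like and signalling peptides, had 27 of 106 called higher and 4 lower. LCR32 (AT2G28405) had 80.3 RPKM (86 reads) at stage C and 11.6 RPKM (12 reads) at stage B (ratio 6.92, 95% interval 3.76 to 13.9). LCR66 (AT1G61070) fell, with 3.99 RPKM (10 reads) at stage C and 82.3 RPKM (199 reads) at stage B (ratio 0.0485, 95% interval 0.0229 to 0.0911), and so did AT2G41415, with 7.73 RPKM at stage C and 69.1 at stage B. Lipid transfer proteins ran the other way, with 5 of 76 called higher and 18 lower. AT1G73890, which is on no list, had 6.07 RPKM (15 reads) at stage C and 87.6 RPKM (209 reads) at stage B (ratio 0.0693, 95% interval 0.0381 to 0.117). The families plot sets these groups beside histones and ribosomal proteins, in which 0 of 50 and 1 of 300 loci were called.

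**Figure D4:**
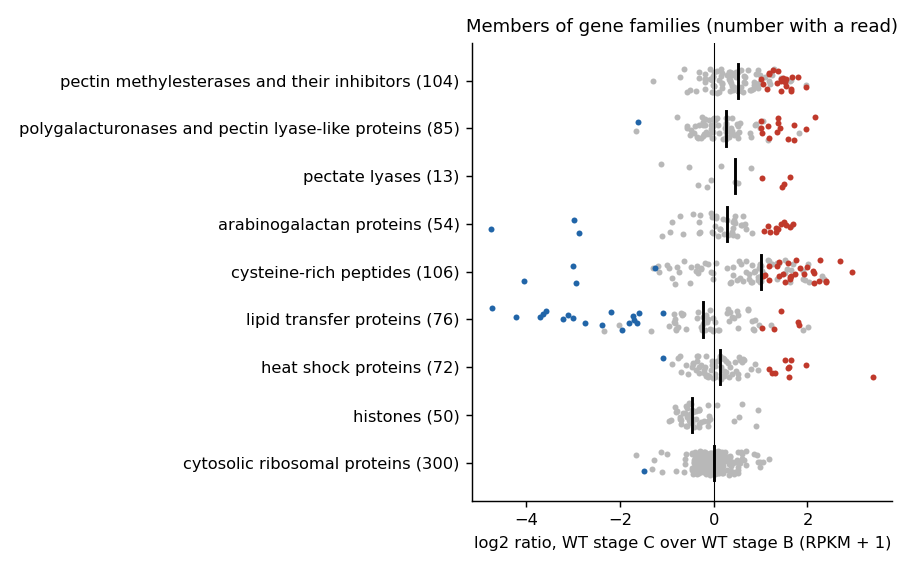
Log2 ratio of wild-type stage C over stage B (RPKM + 1) for members of 9 gene families, with the number with a read in brackets. Points are loci (red called higher, blue called lower, grey not called) and black bars are medians. Pectin methylesterases, pectate lyases and cysteine-rich peptides lie mostly to the right of 0, and called lipid transfer proteins lie mostly to the left.

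The most abundant rising gene was THI2.1 (AT1G72260; chromosome 1, 27198433 to 27199444, TAIR10), a thionin with antimicrobial activity, at 1782 RPKM (6516 reads) at stage C and 408 RPKM (1440 reads) at stage B (ratio 4.37, 95% interval 4.12 to 4.63). The SKU5-like proteins sks13 (AT3G13400), also among the 6 most abundant, and sks12 (AT1G55570), among the 12 largest ratios, stood at 1255 and 182 RPKM at stage C and 460.4 and 31.9 RPKM at stage B. The largest log2 ratio of a gene with at least 10 RPKM was that of AT5G42170, an SGNH-type esterase, with 39.2 RPKM (185 reads) at stage C and 3.74 RPKM (17 reads) at stage B (ratio 10.5, 95% interval 6.38 to 18.4) and 0 reads at stage A. SWEET-type sugar exporters gave 2 of the 12 largest rises. SWEET9 (AT2G39060), which loads nectar in nectaries, had 15.3 RPKM (62 reads) at stage C and 1.28 RPKM (5 reads) at stage B (ratio 11.97, 95% interval 4.86 to 38.2), and AtVEX1 (AT5G62850), named for its expression in the vegetative cell of pollen, had 37.4 RPKM (157 reads) at stage C and 4.69 RPKM (19 reads) at stage B (ratio 7.98, 95% interval 4.94 to 13.6). AT1G64360 and AT3G28820, of unknown function, had 67.7 and 49.8 RPKM at stage C and 9.097 and 6.93 RPKM at stage B.

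The 250 bases before the annotated start (RefSeq, TAIR10.1) were searched on both strands for 9 short motifs. The share differed by the largest ratio between loci called higher and lower for the MEF2-type CArG box, the site known in Arabidopsis pollen for MADS-domain complexes of the AGL66 and AGL104 kind. It lay upstream of 55 of 572 nuclear protein-coding loci called higher (9.62%), 6 of 361 called lower (1.66%) and 460 of all 22257 with a read (2.07%). On the late pollen list 13 of 52 upstream stretches held it, among them those of VGD1, PGA4, AHA8, BUPS1 and LRX9, which were called higher. The others of these 13 loci were not called higher. The upstream stretches of the 6 most abundant rising loci that hold the box and overlap no other annotated gene are shown 5′ to 3′, ending at the base before the start, with the box in capitals. They were chosen after these shares were seen.
AGP6 (chr5:4636677-4636926, minus strand): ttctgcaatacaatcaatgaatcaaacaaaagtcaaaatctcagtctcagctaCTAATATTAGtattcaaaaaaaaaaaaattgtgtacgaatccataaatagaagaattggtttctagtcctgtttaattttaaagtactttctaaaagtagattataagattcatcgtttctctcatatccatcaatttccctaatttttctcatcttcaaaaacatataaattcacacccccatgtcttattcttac
AGP40 (chr3:7308963-7309212, minus strand): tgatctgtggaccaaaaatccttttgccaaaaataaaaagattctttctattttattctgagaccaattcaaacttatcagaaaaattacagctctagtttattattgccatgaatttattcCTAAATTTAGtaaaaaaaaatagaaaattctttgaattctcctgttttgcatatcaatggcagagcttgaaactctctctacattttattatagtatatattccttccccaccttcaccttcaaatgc
VGD1 (chr2:19330198-19330447, minus strand): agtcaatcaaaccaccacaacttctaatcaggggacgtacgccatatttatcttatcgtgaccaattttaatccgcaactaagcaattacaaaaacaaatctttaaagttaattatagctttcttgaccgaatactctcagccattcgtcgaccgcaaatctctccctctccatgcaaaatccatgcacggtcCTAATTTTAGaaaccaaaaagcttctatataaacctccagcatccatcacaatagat
AT3G01270 (chr3:84902-85151, minus strand): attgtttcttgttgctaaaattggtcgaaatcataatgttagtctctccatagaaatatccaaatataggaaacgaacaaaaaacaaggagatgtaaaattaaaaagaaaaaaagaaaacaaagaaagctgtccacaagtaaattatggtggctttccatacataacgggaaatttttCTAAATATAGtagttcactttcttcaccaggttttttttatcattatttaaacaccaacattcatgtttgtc
PGA4 (chr1:612325-612574, minus strand): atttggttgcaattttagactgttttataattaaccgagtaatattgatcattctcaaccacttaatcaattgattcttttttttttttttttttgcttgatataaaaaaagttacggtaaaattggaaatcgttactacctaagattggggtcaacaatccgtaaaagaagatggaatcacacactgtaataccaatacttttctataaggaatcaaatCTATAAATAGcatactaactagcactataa
AT3G28790 (chr3:10815700-10815949, minus strand): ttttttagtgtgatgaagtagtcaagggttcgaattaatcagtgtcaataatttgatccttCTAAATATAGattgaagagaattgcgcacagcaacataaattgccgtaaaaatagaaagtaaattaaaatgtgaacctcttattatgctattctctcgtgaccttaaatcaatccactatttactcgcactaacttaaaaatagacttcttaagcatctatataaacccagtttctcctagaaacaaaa

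The box begins 197 bases before the start in AGP6, 128 in AGP40, 57 in VGD1, 72 in AT3G01270, 30 in PGA4 and 189 in AT3G28790, so its place is not shared. AGP40 had 991 RPKM at stage C and 380.5 at stage B, and AT3G28790, a protein of unknown function (DUF1216), had 560.2 RPKM at stage C and 245 at stage B. The levels of AGP6, VGD1, AT3G01270 and PGA4 are given above. A match describes the letters in this window and does not show binding, and the groups were not matched for base composition. The rising loci with the box include neighbours of the same family, such as the DUF1216 genes AT3G28770, AT3G28780 and AT3G28790, so they are not all independent. AGAAA, an element first described in tomato LAT genes of pollen, was common everywhere, at 89.3% of loci called higher, 80.9% of those called lower and 82.3% of all. TGGGCC, found upstream of many housekeeping genes, was in 4.895%, 7.76% and 15.4%. TATAAA was in 54.2%, 52.1% and 46.7%.

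CANNTG, the E-box that basic helix-loop-helix factors bind, differed little, at 55.8% of loci called higher, 60.4% of those called lower and 55.6% of all, and it includes every CACGTG (7.69%, 9.42% and 7.04%). On the tapetum secreted list 7 of 10 held it. Of the 4 members most abundant at stage B whose upstream stretch overlaps no other gene, 3 are shown with CANNTG in capitals, as the group that fell without exception. Each of the 3 holds 1 match, and in ATA27 it is a CACGTG. The fourth, AT1G66850, also holds 1 match and is not shown.
LTP12 (chr3:19136676-19136925, minus strand): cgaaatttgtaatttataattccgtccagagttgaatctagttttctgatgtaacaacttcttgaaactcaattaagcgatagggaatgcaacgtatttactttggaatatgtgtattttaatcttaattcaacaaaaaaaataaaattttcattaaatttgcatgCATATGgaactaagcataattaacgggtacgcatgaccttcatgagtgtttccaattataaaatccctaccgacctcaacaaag
ATA27 (chr1:28510892-28511141, plus strand): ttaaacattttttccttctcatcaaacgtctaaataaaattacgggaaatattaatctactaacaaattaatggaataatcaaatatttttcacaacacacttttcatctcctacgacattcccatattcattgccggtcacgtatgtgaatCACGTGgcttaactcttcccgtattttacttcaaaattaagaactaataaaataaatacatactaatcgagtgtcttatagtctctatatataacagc
ATA7 (chr4:14043690-14043939, plus strand): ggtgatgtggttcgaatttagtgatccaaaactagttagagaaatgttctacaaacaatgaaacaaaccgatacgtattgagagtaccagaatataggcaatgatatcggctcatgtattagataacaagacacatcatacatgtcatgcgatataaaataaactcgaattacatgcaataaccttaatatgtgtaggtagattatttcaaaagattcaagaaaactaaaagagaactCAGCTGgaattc

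Of the remaining motifs, AACCCTA, a telo box, was in 4.72% of loci called higher, 5.54% of those called lower and 6.29% of all. TTCCCGC, of the E2F type, was in 1.399%, 0.554% and 1.28%. AACGG, the core of a mitotic element, was in 18.5%, 16.3% and 21.4%. It was in 15 of 36 cell division loci and 25 of 50 histone loci, lists in which 0 members were called.

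On the stamen maturation list 4 of 17 were called higher and 0 lower, and 5 lay below 0. Jasmonate drives filament elongation and anther opening through the factors MYB21, MYB24, MYB57 and MYB108. MYB21 had 72.5 RPKM (330 reads) at stage C and 18.9 RPKM (83 reads) at stage B (ratio 3.84, 95% interval 3.01 to 4.94), and 1 read at stage A. MYB24 had 16.1 RPKM at stage C and 2.95 at stage B (log2 ratio 2.12), and MYB108 had 5.61 RPKM at stage C and 1.94 at stage B (log2 ratio 1.17). MYB57 stayed under 5 RPKM, at 3.91 RPKM at stage C and 0.162 at stage B. GA20OX2, an enzyme of gibberellin synthesis, had 49.9 RPKM at stage C and 12.9 at stage B, while GA20OX1 had 1.65 RPKM at stage C and 3.998 at stage B. On the list of jasmonate synthesis and signalling 2 of 27 were called higher, the lipoxygenase LOX4 at 16.3 RPKM at stage C and 7.06 at stage B and the repressor JAZ5 at 77.1 RPKM at stage C and 37.03 at stage B. The synthesis enzymes AOS and OPR3 had log2 ratios of 0.09 and 0.54. Over all loci with a read, 2.5% were called higher. The auxin-induced SAUR family had 4 of 63 called higher, among them AT4G13790 at 23.1 RPKM at stage C and 3.35 at stage B, and the expansin EXPA11, which loosens walls in growing cells, had 10.3 RPKM (50 reads) at stage C and 1.28 RPKM (6 reads) at stage B (ratio 8.04, 95% interval 3.45 to 22.96).

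On the petal and sepal list 1 of 15 was called, TPS11 (AT5G44630), a sesquiterpene synthase of floral scent, at 107 RPKM at stage C and 46.9 at stage B. On the carpel and ovule list 1 of 28 was called, HEC2, a bHLH factor of the gynoecium, at 1.71 RPKM at stage C and 12.2 at stage B. On the list of floral organ identity and meristem genes 2 of 19 fell, WUS, which maintains the stem cells, at 2.102 RPKM (11 reads) at stage C and 6.34 RPKM (32 reads) at stage B, and PAN at 2.81 RPKM (21 reads) at stage C and 8.86 RPKM (64 reads) at stage B. INO, of the outer ovule integument, was not called, at 27.3 RPKM at stage C and 27.9 at stage B. Genes of secondary wall thickening and dehiscence were not called in either direction (0 of 22), with the laccase LAC4 at 12.6 RPKM at stage C and 9.896 at stage B and MYB46 at 3.18 RPKM at stage C and 1.98 at stage B. Only 6 of the 22 reached 5 RPKM in either library, so the rest could not be called. Among all loci that reached it, 4.51% were called higher and 2.98% lower.

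Cell division genes lay slightly lower at stage C without reaching the threshold. On this list 32 of 36 were below 0 and 0 were called, with a median log2 ratio of -0.48, and histones had 44 of 50 below 0 with a median of -0.47. KNOLLE, a syntaxin of the cell plate, had 68.6 RPKM at stage C and 107 at stage B, and the mitotic cyclin CYCB1;1 had 26.96 RPKM at stage C and 42.95 at stage B. Among all cyclins and cyclin-dependent kinases 1 of 59 was called higher and 1 lower, both of them D-type cyclins outside this list. CYCD6;1 fell to 7.25 RPKM at stage C (28 reads), against 20.12 RPKM at stage B (75 reads). CYCD7;1 rose to 25.4 RPKM at stage C (130 reads), against 9.52 RPKM at stage B (47 reads). Of the meiosis genes 0 of 36 were called, but only 15 of them reached 5 RPKM in either library. That level was reached by 30 loci of the cell division list and 42 cyclins and kinases. Among all loci that reached it, 4.51% were called higher and 2.98% lower, so counts of calls this small are near the general share. DMC1, the meiotic recombinase, had 18.3 RPKM at stage C and 28.9 at stage B, and SDS, SPO11-1, ASY1 and ZYP1A were each below 5 RPKM in both libraries.

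On the photosynthesis list 6 of 51 were called lower and 0 higher, all 6 of them light-harvesting proteins, while others such as LHCB4.3 (log2 ratio -0.12) and LHCA6 (-0.08) were not called, and 47 were below 0 (median log2 ratio -0.39). CAB2 had 562 RPKM (2805 reads) at stage C and 1834 RPKM (8842 reads) at stage B (ratio 0.306, 95% interval 0.293 to 0.3195). LHCB3 had 909 RPKM at stage C and 1911 at stage B, LHCB2.3 had 172 RPKM at stage C and 532 at stage B and CAB3 had 875 RPKM at stage C and 2065 at stage B. CAB1, CAB2 and CAB3 are close copies, so the division of reads among them is uncertain, but all 3 were lower at stage C (CAB1 log2 ratio -0.87, not called). Subunits of the photosystem cores and of Rubisco were not called, with PSAD-1 at 921 RPKM at stage C and 1102 at stage B and RBCS1A at 688 RPKM at stage C and 898 at stage B. Reads on chloroplast loci were 1.103% of the library at stage C and 1.65% at stage B, after 1.61% at stage A, and mitochondrial reads were 0.322% and 0.506% at stages C and B. The part of these shares in the result was not tested.

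CBF2 (AT4G25470) and CBF1 (AT4G25490), cold-response factors of the AP2/ERF family at the ends of a row of 3 such genes that were all called lower, had 3 and 4 reads at stage C and 122 and 81 reads at stage B, or 0.748 and 0.995 RPKM and 31.5 and 20.9 RPKM (ratio 0.0237, 95% interval 0.00483 to 0.07102 for CBF2). FT, the mobile flowering signal, had 11.6 RPKM (42 reads) at stage C and 1.14 RPKM (4 reads) at stage B (ratio 10.1, 95% interval 3.68 to 38.9) and was the single call among 14 clock and flowering-time genes. Evening-phased members lay above 0 without being called, with ELF4 at 76.1 RPKM at stage C and 37.8 at stage B, GI at 52.7 RPKM at stage C and 36.1 at stage B and TOC1 at 67.8 RPKM at stage C and 49.5 at stage B. Morning-phased LHY and CCA1 were below 1 RPKM in both. Heat shock proteins had 10 of 72 called higher and 1 lower. HSP90.1 had 146 RPKM (1540 reads) at stage C and 36.8 RPKM (373 reads) at stage B (ratio 3.99, 95% interval 3.56 to 4.47). The HSP20-type AT1G12180 had 25 reads at stage C and 0 at stage B, 8.04-fold higher when set against the floor of 3 reads in the library. AT4 (AT5G03545), a phosphate-starvation transcript, had 40.99 RPKM (121 reads) at stage C and 5.97 RPKM (17 reads) at stage B (ratio 6.87, 95% interval 4.12 to 12.2). The labels do not give the hour or day at which each library's buds were taken, and the part of such differences was not tested.

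Calls among proteases and nucleases of cell death were few, on lists with few loci that could be called. On the list of papain-like proteases 0 of 19 were called higher and 1 lower, and 17 lay above 0. The 1 called was a gene annotated as a cysteine proteinase (AT1G06260), at 2.24 RPKM at stage C and 5.802 at stage B. Of the 19, 12 reached 5 RPKM in either library. CEP1 (AT5G50260; chromosome 5, 20455317 to 20457029, TAIR10) had 6 reads at stage C and 1 at stage B, 0.917 and 0.158 RPKM (ratio 5.79, 95% interval 0.703 to 266), so no change was detectable at this depth. The mutant libraries held 6 and 5 reads of the same gene at stages C and B, so the genotype labels could not be checked by it. XCP2, a protease of xylem cell death, lay just under the threshold, at 19.8 RPKM at stage C and 9.39 at stage B (log2 ratio 0.999). The abundant vacuolar proteases RD19A and RD21A had 676 and 247 RPKM at stage C and 523 and 187 RPKM at stage B. On the developmental cell death list 0 of 25 were called, but only 8 of them reached 5 RPKM in either library and could be called. Among all loci that reached it, 4.51% were called higher and 2.98% lower, so the counts on both lists are near the general share. BFN1, a nuclease of senescing and dying cells, had 2.77 RPKM at stage C and 2.11 at stage B, RNS3 had 1.802 RPKM at stage C and 0 reads at stage B, and the metacaspase MC9 was below 0.2 RPKM in both.

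Subtilases and serine carboxypeptidases are further secreted or vacuolar proteases. Over all loci with a read, 2.5% were called higher and 1.66% lower, and of those that reached 5 RPKM 4.51% and 2.98%. That level was reached by 23 subtilases, 18 serine carboxypeptidases and 17 class III peroxidases. Of the subtilases 4 of 44 were called higher and 1 lower. SBT4.13 had 6.38 RPKM (65 reads) at stage C and 0.407 RPKM (4 reads) at stage B (ratio 15.7, 95% interval 5.84 to 59.3), and AT4G21630 had 66.3 RPKM at stage C and 14.3 at stage B, while AT1G20150 fell to 0.502 RPKM at stage C (5 reads), against 11.5 RPKM at stage B (110 reads). Of the serine carboxypeptidases 4 of 43 were called higher and 0 lower, with scpl38 at 39.2 RPKM at stage C and 9.700 at stage B. Class III peroxidases went both ways, with 5 of 50 called higher and 5 lower. AT4G16270 had 20.9 RPKM at stage C and 109 at stage B, and AT3G17070 had 73.7 RPKM at stage C and 19.7 at stage B.

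Few loci shifted between transcript models. Among 662 loci with at least 30 unique reads in each library and more than 1 model, 2 changed the share of a model by at least 30 percentage points. For ROPGEF11 (AT1G52240), an activator of ROP GTPases, the model AT1G52240.1 took 70 of 90 reads at stage C (77.8%, exact binomial 95% interval 67.8 to 85.9) and 33 of 73 at stage B (45.2%, 33.5 to 57.3). In atcep1 the same model took 81.3% of 107 reads at stage C and 52.2% of 23 at stage B. For AT1G12440 the model AT1G12440.2 took 24 of 37 reads at stage C (64.9%, 47.5 to 79.8) and 14 of 46 at stage B (30.4%, 17.7 to 45.8), and in atcep1 39.3% of 56 and 45.3% of 64. The next changes were 25.5 points for AL6, 21.9 for RPS15A and 21.7 for RS40.

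A single run of at least 4 adjacent protein-coding genes was called in 1 direction. It runs from AT3G07820 to AT3G07850 on chromosome 3 (chr3:2496331-2507558, TAIR10.1), and all 4 encode pectin lyase-like proteins. Their log2 ratios lay between 1.01 and 1.96, and their levels between 7.99 and 669.9 RPKM at stage C and between 3.01 and 302 RPKM at stage B. They are related copies, so reads may be divided unevenly among them.

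The step from stage B to C in atcep1 uses libraries that the wild-type step does not, and differs in genotype, so it is not a replicate. In atcep1 819 loci were called higher (3.37% of 24295 with a read, 6.05% of 13537 that reached 5 RPKM) and 441 lower (1.82% and 3.26%). Of the 598 loci that rose in wild type, 546 had a log2 ratio above 0 in atcep1 (91.3%), where 36.9% of loci with at least 5 RPKM in both wild-type libraries lay above 0. The rise was also called for 391, which is 65.4% of the wild-type list and 47.7% of the atcep1 list. Of the 396 that fell, 341 had a log2 ratio below 0 in atcep1 (86.1%, with 63.1% of loci below 0), and 182 were called, 46.0% of the wild-type list and 41.3% of the atcep1 list. Calls in opposite directions were 3, of which 2 were nuclear protein-coding genes. The tapetum secreted list had medians of -3.40 in wild type and -2.64 in atcep1, and the late pollen list 0.86 and 1.11. Levels differed all the same: the tapetum secreted genes summed to 210.2 RPKM at stage C and 1709.7 at stage B in wild type, and to 869.7 and 4539 RPKM in atcep1.

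Several groups had unlike medians in the genotypes. The 2 steps also differ in scaling, with TMM factors (edgeR) at stages C and B of 0.969 and 1.03 in atcep1 and 0.999 and 1.001 in wild type. The medians below are not adjusted for this, and 63.1% of the background loci lay below 0 in atcep1. The photosynthesis list had a median log2 ratio of -0.39 in wild type and -0.10 in atcep1, and CAB2 had -1.71 and -0.06. CBF2 had -4.22 in wild type and -0.46 in atcep1, where it was at 1.201 RPKM at stage C and 2.04 at stage B. Clock and flowering-time genes had medians of 0.24 and -0.30, with ELF4 at 0.99 and -0.60. HSP90.1 had 1.97 and -0.11, and heat shock proteins were called higher in 10 cases in wild type and 1 in atcep1. Cytosolic ribosomal proteins had medians of -0.003 in wild type and -0.36 in atcep1. None of these differences was tested, as each step rests on 1 library a side.

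**Figure D5:**
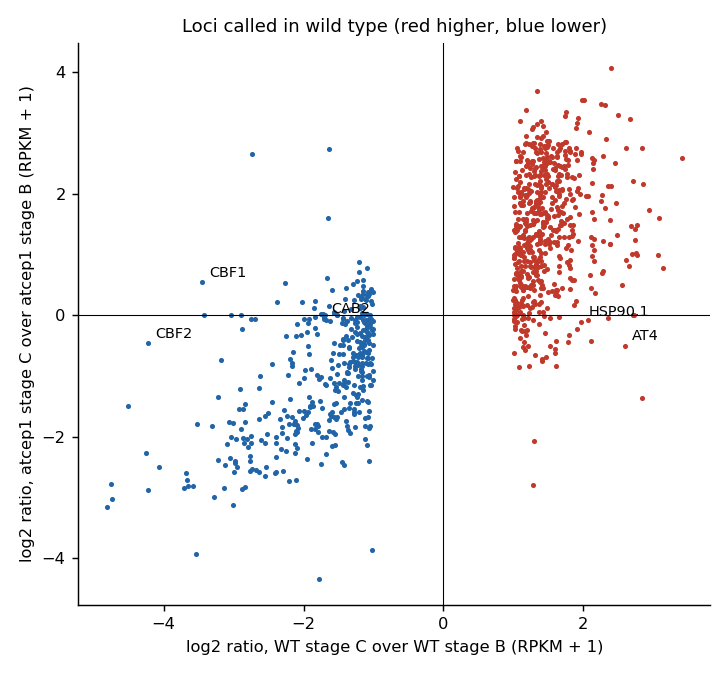
Log2 ratio of stage C over stage B (RPKM + 1) in wild type on the horizontal axis and in atcep1 on the vertical axis, for the loci called in wild type (598 higher in red, 396 lower in blue). Of the red loci 546 lie above 0 on the vertical axis and of the blue loci 341 below it, and AT4, HSP90.1, CBF1, CBF2 and CAB2 lie between -0.50 and 0.54 on that axis.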

How the data were processed

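Polyadenylated RNA of whole flower buds was captured with oligo(dT), primed with random hexamers and sequenced on an Illumina HiSeq, per the labels' protocols, which name no step that marks strand. Antisense partners therefore cannot be told apart. For each library the authors deposited a table with a whole-number count of uniquely mapped reads per transcript model, the RPKM and the percent of the model covered, per the file headers. The deposited RPKM values are the count over model length and the library total. The deposited percent covered was not used further. TAIR10 is the build named in the submitters' processing notes, and for the aligner nothing is given in the sources used here. A model missing from a table was set to 0.

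Counts and RPKM of 30088 models were summed to 25964 loci, with 25743 matched to RefSeq (TAIR10.1) for names. File coordinates overlapped the RefSeq gene for 25742 of 25743 nuclear loci found in both. Reads that fit several models of a locus may be missing from unique counts, so multi-model genes may be too low. The 3 reads taken as the floor equal 0.706 and 0.732 RPKM on a 1000-base transcript at stages C and B. The call rule, with a pseudocount of 1 RPKM, and the intervals were tested on simulated counts (Python 3.11.15, scipy 1.17.1). edgeR 4.0.16 gave TMM factors for 1 alternative. No test was assigned, as each stage was sequenced once. Intervals are Clopper-Pearson at 95%. The members and gene lists were chosen with earlier results of these data known.

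Named genes are the 12 largest rises and 12 largest falls with at least 10 RPKM, the 6 most abundant of each, up to 4 called members per list and 2 per family in each direction, members that define a list, the 5 largest changes of model share, opposite calls in atcep1, runs of neighbours and CEP1. All were taken among nuclear protein-coding loci. Genes named beside these were chosen after their values were seen. Promoters ran 250 bases up from the RefSeq start, and 1 of those selected for printing is not reported here. Alternatives were other pseudocounts (0.5 and 0.1 RPKM), minimums, fold thresholds, scalings, a single model per locus and a rule on read ratios.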

Additional observations from a re-analysis of the deposited data

Results flagged for a closer look

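Among the named genes, those called in wild type with a log2 ratio of opposite sign in atcep1 were picked out for a closer look. They are not all such loci, as 546 of 598 higher and 341 of 396 lower loci had the same sign in atcep1. None of these differences was tested, as each step has 1 library a side. Values are log2 ratios of stage C over stage B. CBF1, a cold-response factor, had -3.46 in wild type and 0.54 in atcep1, where it was at or below 1.198 RPKM. AT4, the phosphate-starvation transcript, had 2.59 in wild type and -0.50 in atcep1, at 40.99 and 5.97 RPKM in wild type and 27.1 and 38.7 RPKM in atcep1 (stages C and B). HSP90.1 had 1.97 in wild type and -0.11 in atcep1. The AP2/ERF factor DREB26 had 1.11 in wild type and -0.25 in atcep1. The peroxidase AT1G44970 had -1.75 in wild type and 0.01 in atcep1. A receptor-kinase-related protein, AT5G48540, had -1.21 in wild type and 0.87 in atcep1, where its interval, 1.20 to 3.30, lies clear of 1. The F-box proteins AT5G07610 and FBS3 had wild-type ratios of 1.14 and -1.04, with -0.52 and 0.42 for atcep1. FBS3 had only 8 reads at stage C and 18 at stage B in wild type, and its interval of 0.161 to 1.04 holds 1. Its atcep1 interval of 0.773 to 2.48 holds 1 as well. AT4G16240 and AT3G04184, of unknown function, were called in opposite directions (-2.74 and 1.28 in wild type, 2.65 and -2.79 in atcep1), but on 0 to 6 reads per library, and their wild-type read ratios have intervals that hold 1.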

How the results depend on the processing

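No paired analysis was possible because each genotype and stage was sequenced once. Pseudocounts of 0.5 and 0.1 RPKM, TMM factors, centring, other library totals and a single model per locus left the counts within 1.5 times of 598 higher and 396 lower loci. The scalings among these shifted wild-type log2 ratios by -0.012 to 0.010. Without a minimum level 1006 loci were higher and 764 lower, and a minimum of 10 RPKM left 252 lower. A 3-fold threshold gave 192 and 181, a 4-fold threshold 67 and 118, and read ratios of at least 2 or at most 0.5 with intervals clear of 1 gave 942 and 689. With a pseudocount of 0.1 RPKM the median log2 ratios were 1.1025 for late pollen, 0.99 for pectin methylesterases, 0.59 for laccases and 1.79 for cysteine-rich peptides (1.44 with 0.5). The share with the same sign in atcep1 was 93.9% of higher loci with a minimum of 10 RPKM, and of lower loci 80.8% with TMM factors and 93.2% at 4-fold. With at least 100 reads per locus 0 loci of 184 changed model share by 30 points. Of 138 named genes recomputed, 4 moved outside their counting interval under an alternative and none changed direction. With a promoter window 50% as long the CArG box was in 6.99% of loci called higher, 1.11% of those called lower and 1.28% of all. With 1 library a side, differences between plants cannot be separated from stage.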

Other observations

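Calls of the wild-type step in several large families stand beside shares of 2.5% higher and 1.66% lower over all loci with a read. Among loci that reached 5 RPKM, which a call needs, the shares were 4.51% and 2.98%. That level was reached by 96 pentatricopeptide repeat, 269 cytosolic ribosomal and 94 F-box loci. Of 251 pentatricopeptide repeat proteins, which edit and process organelle RNA, 0 were called, with a median log2 ratio of 0.03. Of 300 cytosolic ribosomal protein loci 1 was called, AT5G09500, which had 23.8 RPKM at stage C and 68.8 at stage B. F-box proteins, which select proteins for degradation, had 2 of 370 called higher and 1 lower. AT2G26850, an F-box protein, had 83.7 RPKM (557 reads) at stage C and 29.7 RPKM (191 reads) at stage B and 0 reads at stage A. Among transcription factors, MYB factors had 3 of 124 called higher and 8 lower, bHLH factors 1 of 96 and 3, and WRKY factors 0 of 53 and 2. WRKY40, a factor of defence responses, had 11.8 RPKM at stage C and 26.7 at stage B. NIP7;1 (AT3G06100), a boric acid channel of the anther, was the single aquaporin-type gene of 32 to be called, at 0.782 RPKM (4 reads) at stage C and 12.6 RPKM (62 reads) at stage B (ratio 0.0623, 95% interval 0.0164 to 0.168). XTH3 (AT3G25050), a xyloglucan-modifying enzyme, fell to 5.39 RPKM at stage C, against 42.4 RPKM at stage B, whereas XTH24 rose to 62.4 RPKM at stage C, against 25.9 RPKM at stage B.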
